A study of Mus musculus with 16 samples.

Results

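The genes described here are 9 genes of calcium and calmodulin signalling: the calmodulin genes Calm2 and Calm3, the 4 genes of Ca2+/calmodulin-dependent protein kinase II (CaMKII) Camk2a, Camk2b, Camk2d and Camk2g, the kinase gene Camk4, the calcineurin catalytic subunit gene Ppp3ca and the neurogranin gene Nrgn. They were taken by symbol from the feature table, in which each of the 9 symbols names 1 of 32285 rows. The 9 were chosen with earlier results of these data known. Their nuclear RNA was read in the hippocampus of female mice aged 9 months, in 16 libraries of single nuclei. The mice carried Ch25h, the gene of cholesterol 25-hydroxylase, intact (Ch25h+/+) or deleted (Ch25h-/-), and were labelled positive or negative for tau (Tau+ or Tau-). The 4 combinations, with 4 libraries each, are written with both labels, such as Ch25h+/+ Tau-. The title places CH25H downstream of STING and interferon in tau disease, and the comparisons are of tau within each Ch25h genotype and of Ch25h loss within each tau status. The labels name neither the tau line nor the promoter that drives it, and do not say whether each library is 1 mouse, so that p-values measure the spread between these libraries.

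Calmodulin is a small protein that binds calcium ions and then switches on or off a wide range of enzymes, and in mammals several genes on different chromosomes encode the same calmodulin protein. CaMKII is a many-subunit kinase of synapses that stays active after a calcium signal through phosphorylation of its own subunits, and it is required for long-term potentiation in the hippocampus. CaMKIV acts in the nucleus on transcription factors such as CREB, calcineurin is the calmodulin-dependent phosphatase that opposes many kinases and acts on NFAT factors, and neurogranin holds calmodulin in dendritic spines at low calcium.

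Promoter sequences of 2 of these genes are shown first, because the group comparisons turn on Calm3 and Camk2d, whose levels order the classes differently. RefSeq's promoter table for GRCm38.p6 holds 4 of the 9 genes (Calm3, Camk2b, Camk2d and Nrgn), and the 250 bases before each start in that table were read. The gene models of GENCODE start elsewhere: the Camk2d and Camk2b windows lie inside the GENCODE gene, and those of Calm3 and Nrgn overlap its first bases. Capitals mark 2 motifs in either strand: TGACG (or CGTCA), part of the cAMP response element that CREB binds and here called the CREB-type motif, and GGGCGG (or CCGCCC), the GC box. The 2 motifs do not overlap in these windows.
Calm3, chr7:16924033-16924282, minus strand: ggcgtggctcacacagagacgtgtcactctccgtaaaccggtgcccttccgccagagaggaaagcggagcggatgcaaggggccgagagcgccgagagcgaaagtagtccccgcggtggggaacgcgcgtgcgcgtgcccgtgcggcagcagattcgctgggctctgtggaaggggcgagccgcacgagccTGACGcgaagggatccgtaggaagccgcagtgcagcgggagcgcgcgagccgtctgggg
Camk2d, chr3:126596701-126596950, plus strand: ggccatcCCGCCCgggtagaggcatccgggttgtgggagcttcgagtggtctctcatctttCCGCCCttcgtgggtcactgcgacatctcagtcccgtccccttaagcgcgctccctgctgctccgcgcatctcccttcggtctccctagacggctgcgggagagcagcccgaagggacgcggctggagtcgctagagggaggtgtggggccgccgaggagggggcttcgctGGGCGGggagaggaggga
The Calm3 window held 1 match to the CREB-type motif and 0 to the GC box, and the Camk2d window 0 and 3. Camk2b held 3 GC boxes (chr11:6065749-6065998) and Nrgn 1 (chr9:37552746-37552995), 2 of the Camk2b boxes overlapping, with no CREB-type motif in either. Of 32851 promoters of this length, 17.8% held the CREB-type motif and 32.7% the GC box. The full cAMP response element, TGACGTCA, had 0 matches in each of the 4 windows and was held by 1.55% of promoters. The Calm3 and Camk2d windows were 69.2% and 68.4% G or C, against a median of 52.4%. A match is a description of the letters and not of a bound factor.

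The libraries held 51270831 to 84870650 unique molecular identifiers (UMIs) each. After filters and removal of doublets 136828 nuclei were read, of which 121414 fell into classes named from markers. Each class name stands for nuclei like that type. Values are counts scaled to a common total of UMIs per class and library (CPM), and levels are compared between classes for 1 gene, never between genes. Of 145135 distinct barcodes 2700 occurred in 2 or more libraries, 10 to 40 for each pair of libraries. In each group the first principal component of the deviations from the group means put replicates 1 and 2 on one side (side A) and replicates 3 and 4 on the other (side B), for 16 of 16 libraries in every tested class except microglia (15 of 16). The labels give no batch, and the sides were taken from these same counts, so that calls that use them are a description. Values are given by side for many of the differences, not for all. Ch25h had 8 to 36 counts in every library, those labelled Ch25h-/- included, and so did not check the Ch25h labels. The noncoding gene Gm43049 (chr3:140692038-140760704) read 67.4 to 87.0 CPM in all Tau+ libraries and 1 to 11 counts in all Tau- libraries, which separated the tau labels. Prnp read 105.9 to 152.1 CPM in Tau+ and 62.1 to 102.5 CPM in Tau-. Gm43049 lies 3.75 Mb from Ppp3ca (chr3:136670124-136937727) and 13.8 Mb from Camk2d (chr3:126596302-126846326). The noncoding gene 1700030L20Rik (chr3:136435270-136449349) lies nearer to Ppp3ca. It was also higher with tau in granule neurons of the dentate gyrus, with log2 differences of 3.42 with Ch25h intact and 4.30 without it. The part of this neighbourhood in the tau differences of Ppp3ca and Camk2d was not tested.

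The 9 genes differed in where they were highest over the 9 classes that were tested, those for which no library had fewer than 20 nuclei. For each gene the classes were ordered by mean CPM and neighbours in that order were compared library by library. Of 72 neighbouring pairs, 58 were apart at an adjusted p under 0.05 (two-sided exact permutation of signs over 16 libraries, adjusted over the 72 pairs, smallest possible p = 3.05e-05). The genes themselves were left out of the clustering that made the classes. The highest class stood at 2.53 (Calm3) to 49.7 (Camk2a) times the lowest.

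**Figure D1:**
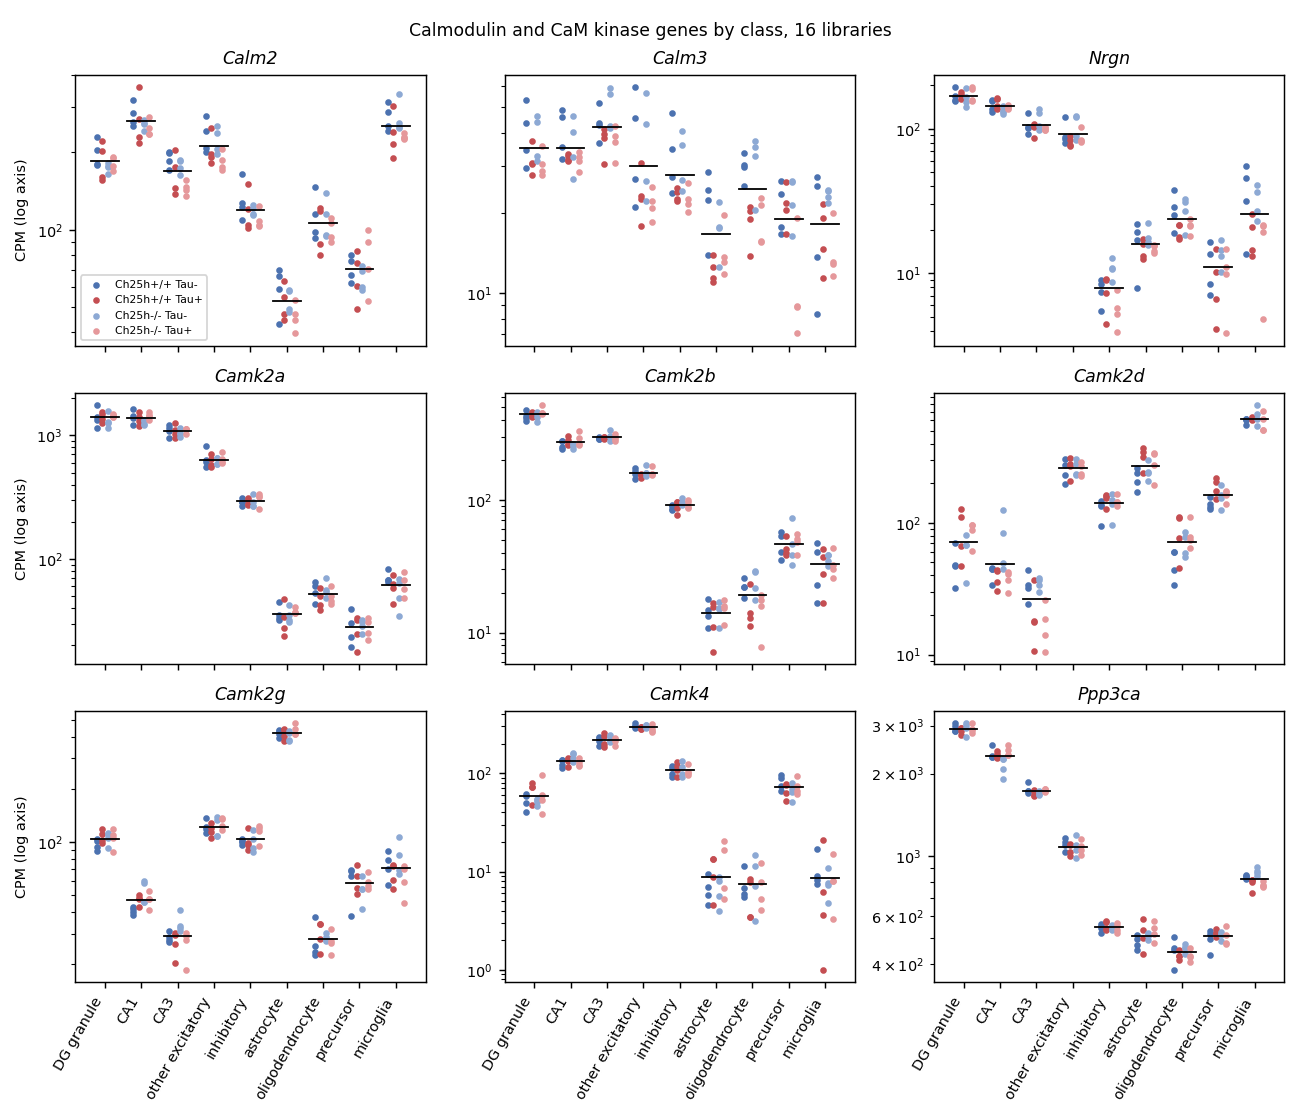
Level of each gene (CPM, log axis) in the 9 tested classes, where precursor stands for oligodendrocyte precursor. Each point is 1 of 16 libraries, coloured by group, and the bar is the mean. The point at 1 for Camk4 in microglia is a library with 0 counts. Camk2a, Camk2b and Nrgn are high in excitatory neurons, Camk2d in microglia and Camk2g in astrocytes, while Calm3 spans 42.1 to 16.6 CPM.

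Calm2 was high both in CA1 pyramidal neurons and in microglia. It read 264 ± 35.1 CPM (SD, n = 16) in CA1 pyramidal neurons (lowest 218, median 259, highest 359) and 254 ± 38.8 CPM in microglia (189.5, 246, 339), and these 2 were not apart (adjusted p = 0.459, exact permutation). Other excitatory neurons (211 CPM), granule neurons of the dentate gyrus (DG; 185 CPM), CA3 pyramidal neurons (169 CPM), inhibitory neurons (120 CPM), oligodendrocytes (107 CPM) and oligodendrocyte precursors (OPCs; 70.3 CPM) followed in that order, each apart from the next. Astrocytes were lowest at 52.9 ± 8.79 CPM. The expected share of free RNA, which is RNA from broken cells that enters all droplets, was 11.8% of the Calm2 counts in microglia and 35.0% in astrocytes.

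Calm3 had the narrowest range. It was highest in CA3 pyramidal neurons at 42.1 ± 7.90 CPM (n = 16; lowest 30.6, highest 59.2), ahead of DG granule neurons and CA1 pyramidal neurons, both at 35.3 CPM and not apart (adjusted p = 0.902, exact permutation). Other excitatory neurons (30.1 CPM) and inhibitory neurons (27.8 CPM) were not apart (adjusted p = 0.574, exact permutation). Oligodendrocytes read 24.7 CPM, and OPCs (19.0), microglia (18.2) and astrocytes (16.6) came last with no 2 neighbours among them apart. Free RNA made up an expected 8.31% of Calm3 counts in CA3 pyramidal neurons, 33.7% in astrocytes, 48.4% in microglia and 72.3% in OPCs. The OPC share is an upper value, since the same estimate predicted more Nrgn and Camk2a than was counted in that class. With the expected free RNA subtracted, CA1 pyramidal neurons passed DG granule neurons (31.2 against 28.6 CPM, adjusted p = 0.0290, exact permutation).

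Nrgn marked excitatory neurons. DG granule neurons read 169 ± 16.1 CPM, CA1 pyramidal neurons 143 ± 11.2, CA3 pyramidal neurons 106 ± 13.8 and other excitatory neurons 91.5 ± 16.01 (n = 16 each), all neighbours apart. Inhibitory neurons were lowest at 7.84 ± 2.45 CPM, below astrocytes (15.99 CPM) and OPCs (10.97 CPM). Free RNA alone predicted 131% of the inhibitory counts and 82.7% to 301% of those in the glial classes. A prediction over 100% exceeds what was counted, as for Nrgn (301%) and Camk2a (240%) in OPCs, so the free RNA share estimated for such a class is too high and its predictions for other genes are upper values.

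Of the 4 CaMKII genes, 2 were highest in DG granule neurons, 1 in microglia and 1 in astrocytes. Camk2a, the alpha subunit of forebrain excitatory synapses, read 1394 ± 161 CPM in DG granule neurons and 1376 ± 132 CPM in CA1 pyramidal neurons, which were not apart (adjusted p = 0.676, exact permutation). CA3 pyramidal neurons read 1084 ± 87.7 CPM, other excitatory neurons 634 ± 69.5 and inhibitory neurons 294 ± 25.3. The glial classes lay between 28.0 CPM (OPCs) and 61.8 CPM (microglia), where free RNA predicted 74.4% to 240% of the counts. Camk2b, the beta subunit that binds actin, was highest in DG granule neurons at 441 ± 31.9 CPM, and CA3 pyramidal neurons (296 ± 13.7 CPM) stood above CA1 pyramidal neurons (271 ± 23.4 CPM). All 8 neighbouring pairs of Camk2b were apart. Camk2b also placed OPCs at 46.5 ± 10.4 CPM above microglia (32.8), oligodendrocytes (19.2) and astrocytes (14.1), with 63.0% of the OPC counts predicted by free RNA.

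Camk2d, the delta subunit, had its highest level in microglia at 613 ± 70.3 CPM (n = 16; lowest 505, median 613, highest 785). Astrocytes (268 ± 60.6 CPM) and other excitatory neurons (260 ± 36.4 CPM) came next and were not apart (adjusted p = 0.795, exact permutation). OPCs read 162 CPM and inhibitory neurons 141 CPM. Oligodendrocytes (71.7 CPM) and DG granule neurons (71.5 CPM) were not apart (adjusted p = 0.743, exact permutation), and CA1 (48.3 ± 23.7 CPM) and CA3 pyramidal neurons (26.5 ± 10.5 CPM) were lowest. Free RNA predicted 1.32% of the microglial and 1.81% of the astrocytic counts, and at most 10.3% in any tested class. Among the classes too small to test, 585 CPM were read in border-associated macrophages, 482 in choroid plexus epithelial cells, 378 in fibroblasts and 319 in ependymal cells (counts of all libraries pooled, with 1.19% to 8.05% predicted by free RNA).

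Camk2g, the gamma subunit, was highest in astrocytes at 418 ± 26.9 CPM (n = 16; lowest 376, median 419, highest 477), above every library of every other tested class. Other excitatory neurons read 122 ± 11.5 CPM. Inhibitory neurons and DG granule neurons were both at 104 CPM and not apart (adjusted p = 0.998, exact permutation). Microglia (70.6 CPM), OPCs (58.2 CPM) and CA1 pyramidal neurons (46.7 CPM) followed, and CA3 pyramidal neurons (29.0 CPM) and oligodendrocytes (28.1 CPM) closed the order, not apart. Free RNA predicted 0.883% of the astrocytic counts.

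Camk4, the kinase that acts in the nucleus, was highest in other excitatory neurons at 294 ± 17.5 CPM, then CA3 (218 ± 20.8 CPM) and CA1 pyramidal neurons (134 ± 13.6 CPM) and inhibitory neurons (108 ± 13.8 CPM). DG granule neurons read 58.5 ± 15.3 CPM, below OPCs at 72.1 ± 13.003 CPM, of which free RNA predicted 16.1%. Astrocytes (8.87), microglia (8.59) and oligodendrocytes (7.42 CPM) were not apart as neighbours and had 53.9% to 107% of their counts predicted by free RNA. Among inhibitory neurons, interneurons of the Lamp5 type read 211 ± 33.4 CPM and of the Vip type 178 ± 31.5, against 77.5 ± 13.9 in the Sst type and 55.0 ± 9.39 in the Pvalb type (n = 16 each).

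Ppp3ca, the alpha catalytic subunit of calcineurin, was highest in DG granule neurons at 2922 ± 98.9 CPM, followed by CA1 (2316 ± 156 CPM) and CA3 pyramidal neurons (1726 ± 48.1 CPM) and other excitatory neurons (1079 ± 60.3 CPM). Microglia stood above inhibitory neurons, at 821 ± 45.5 against 548 ± 17.3 CPM. Astrocytes (509 CPM) and OPCs (507 CPM) were not apart (adjusted p = 0.906, exact permutation), and oligodendrocytes were lowest at 442 ± 29.2 CPM. The expected free RNA was 1.66% to 23.0% of its counts over the 9 classes.

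Over 17 named classes the profiles of Camk2a and Camk2b were the most alike among the 9 genes (Pearson's r = 0.95 of log2(mean CPM + 1)). Camk2d ran opposite to Camk2b (r = -0.49) and Camk2a (r = -0.47), and was closest to Camk2g (r = 0.46). Among 16144 genes of at least 10 CPM in a class, the 3 most like Camk2a were Grin2a (0.99), Rasgef1a (0.98) and Camkv (0.98). The closest were Kcnj6, Add2 and Celf3 (each 0.97) for Camk2b, Slc17a7 (0.98), Icam5 (0.98) and Slc26a4 (0.96) for Nrgn, and Kcng2 (0.92), Atp2b1 (0.90) and Gm34821 (0.90) for Ppp3ca. They were Fbxw7 (0.90), the calcineurin regulatory subunit gene Ppp3r1 (0.88) and Ptk2b (0.87) for Calm2, and Gm15998 (0.90), Efna3 (0.89) and Nos1 (0.89) for Calm3. For Camk4 they were Nyap2 (0.91), Hook1 (0.90) and Reep2 (0.90), and for Camk2d Nmnat3 (0.89), Ppm1m (0.88) and Nsun4 (0.88). Camk2g had the loosest matches, with Il11ra1 (0.82), D930020B18Rik (0.81) and Gm26885 (0.80). The 17 classes share libraries, depth and free RNA, so these values are a description.

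Several genes also varied widely within a class. The CA1 class was made of 3 clusters, numbered by the clustering. Camk2d read 5.29 ± 2.28 CPM in cluster 4, the largest, 70.3 ± 16.7 in cluster 10 and 534 ± 92.9 in cluster 47, and cluster 4 was below both others in 16 of 16 libraries. Nrgn went the other way, at 159 ± 12.9, 124 ± 11.6 and 21.9 ± 11.2 CPM. Ppp3ca read 2649 ± 103 CPM in cluster 4 and 1378 ± 122 in cluster 47. The small cluster 47, with 2.39% to 7.47% of the CA1 nuclei of a library, held 32.3% to 61.8% of the class's Camk2d counts. In the CA3 class Camk2d read 15.6 ± 7.1 CPM in cluster 6 and 156 ± 39.7 in cluster 48, higher in cluster 48 in all 16 libraries.

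DG granule neurons formed 2 clusters that differed in most of the genes. Camk4 read 27.8 ± 7.67 CPM in cluster 1 and 91.0 ± 23.0 in cluster 3, higher in cluster 3 in all 16 libraries, as were Camk2a (1251 against 1549 CPM) and Camk2b (388 against 497 CPM). Nrgn (209 against 128 CPM), Calm3 (41.4 against 28.8 CPM) and Ppp3ca (3150 against 2680 CPM) were higher in cluster 1 in all 16. In astrocytes, cluster 12, led by Gfap, read 399 ± 65.3 CPM of Camk2d against 234 ± 41.1 in cluster 2, higher in 16 of 16 libraries, whereas Camk2g was at 431 and 421 CPM and higher in each cluster in 8 libraries. The 13 clusters of other excitatory neurons spanned 34.3 to 944 CPM of Camk2d and 3.2 to 182 CPM of Nrgn. The highest Camk2d cluster (cluster 36, led by Il1rapl2 and Cpa6) read 16.2 CPM of Nrgn, and the lowest (cluster 26, with Ndst4 and Brinp3 among its leading genes) 172.8 CPM.

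Group comparisons then asked how the genes changed with tau and with the loss of Ch25h. edgeR's quasi-likelihood test was run on counts summed per library and class, with p adjusted over all genes of a class and contrast, and a gene is called at an adjusted p under 0.05. Of 81 pairs of gene and class 80 had enough counts to be tested. For tau with Ch25h intact 1 of the 80 was called, against 0.24% of all 116688 tests in the 9 classes, and 13 were at an unadjusted p under 0.05 (9 lower and 4 higher with tau) against 6.75% of all tests. For tau without Ch25h 0 were called, against 0.147%, and 16 were at an unadjusted p under 0.05 (13 lower and 3 higher) against 7.67%. For the loss of Ch25h with tau 0 were called, against 0.00771%, and 1 was at an unadjusted p under 0.05 against 3.21%. For the loss of Ch25h without tau 0 were called, against 0.00343%, and 4 were at an unadjusted p under 0.05 against 3.39%. For the interaction, the difference between both tau effects, 0 were called, against 0%, and 7 were at an unadjusted p under 0.05 against 3.89%. Over all nuclei together 0 of 9 were called for tau, with 6 at an unadjusted p under 0.05 in edgeR with Ch25h intact and 2 without it, all of them lower with tau, against 14.6% and 12.1% of all genes. Of all genes in all nuclei 0.126% and 0.767% were called. Sums over all nuclei also depend on the share of each class, and DG granule nuclei alone numbered 662 to 2609 per library. The part of these shares in the differences over all nuclei was not tested. With all nuclei included, DESeq2 called 2, 1, 0, 0 and 0 in the 5 contrasts in this order, against 0.731%, 0.808%, 0.0246%, 0.0111% and 0.000724% of all its tests. The 2 tau contrasts share no library, while classes of 1 library share its free RNA.

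**Figure D2:**
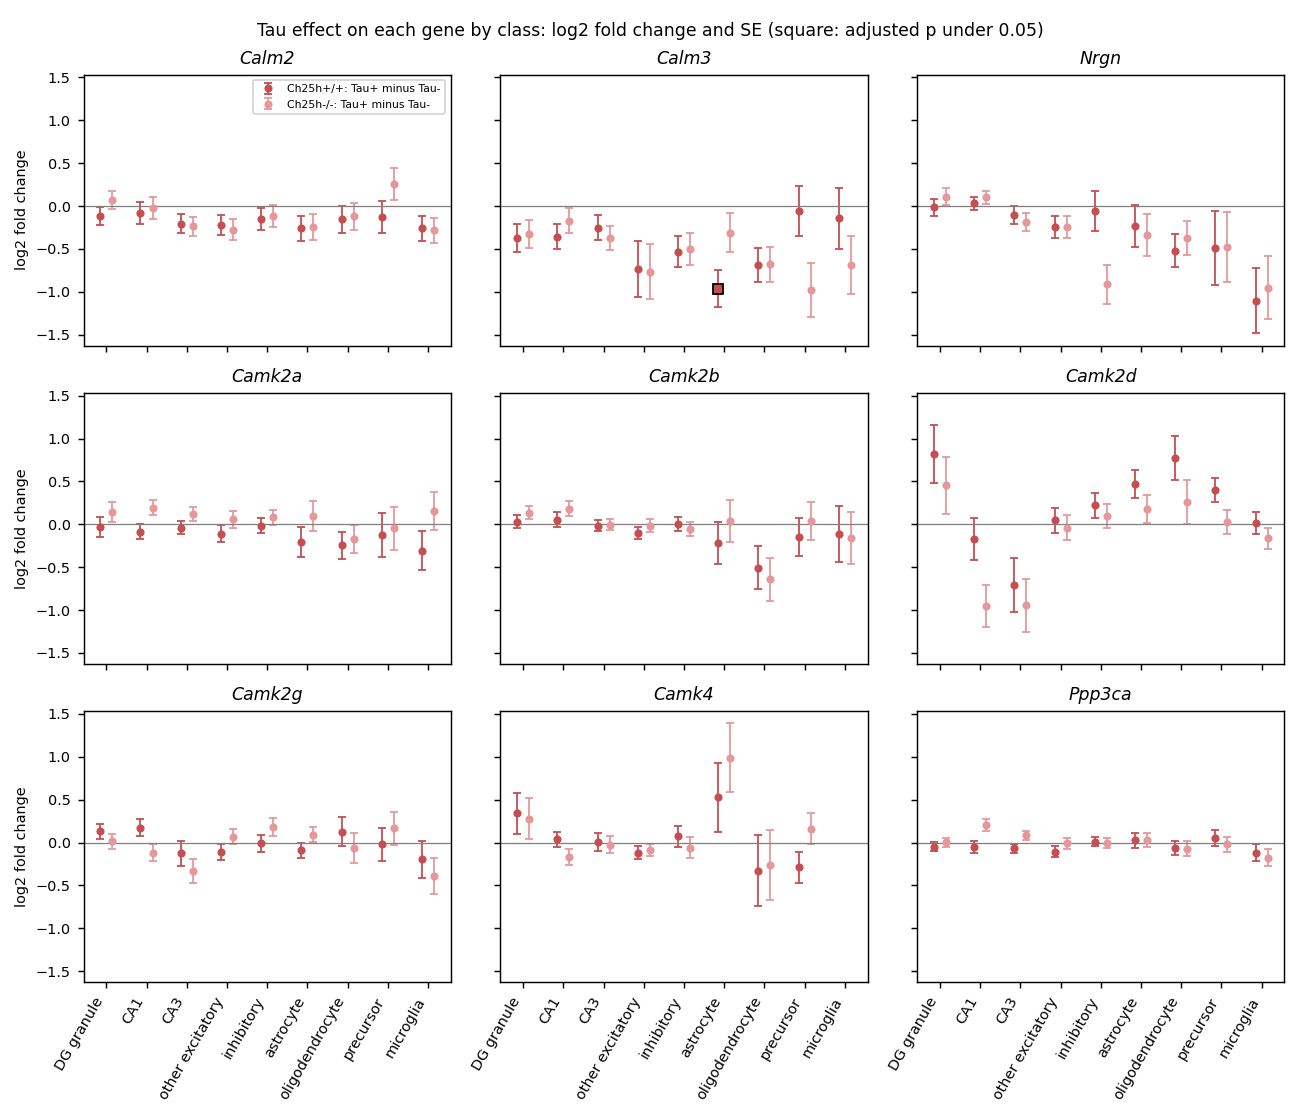
Tau effect on each gene by class as log2 fold change with its standard error, with Ch25h intact (dark) and without Ch25h (light). The square marks the only adjusted p under 0.05, Calm3 in astrocytes at -0.96. Calm3 lies below 0 in 9 of 9 classes in both contrasts, and Calm2 and Camk2a do so only with Ch25h intact. Camk2d lies above 0 in DG granule neurons and below 0 in CA1 and CA3 pyramidal neurons.

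Calm3 in astrocytes was the one called pair. It read 12.5, 13.9, 10.95 and 11.3 CPM in Ch25h+/+ Tau+ and 13.9, 22.4, 28.6 and 24.5 CPM in Ch25h+/+ Tau- (replicates 1 to 4, 18 to 63 counts each). The ranges overlapped only at 13.9 CPM, and Tau- replicate 1 stood with the Tau+ libraries. The means were 12.2 ± 1.34 and 22.3 ± 6.18 CPM (SD, n = 4), and the log2 fold change was -0.96 (SE 0.22, edgeR adjusted p = 0.0452), where 0.0937% of astrocyte genes were called lower. Without Ch25h it read 13.1, 19.7, 13.6 and 11.8 CPM in Tau+ and 17.6, 12.5, 21.99 and 17.6 CPM in Tau-, so the groups overlapped, with a log2 difference of -0.31 (edgeR adjusted p = 0.807). The difference between both effects was 0.65 (SE 0.31, unadjusted p = 0.0492, adjusted p = 0.999975 in edgeR).

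**Figure D3:**
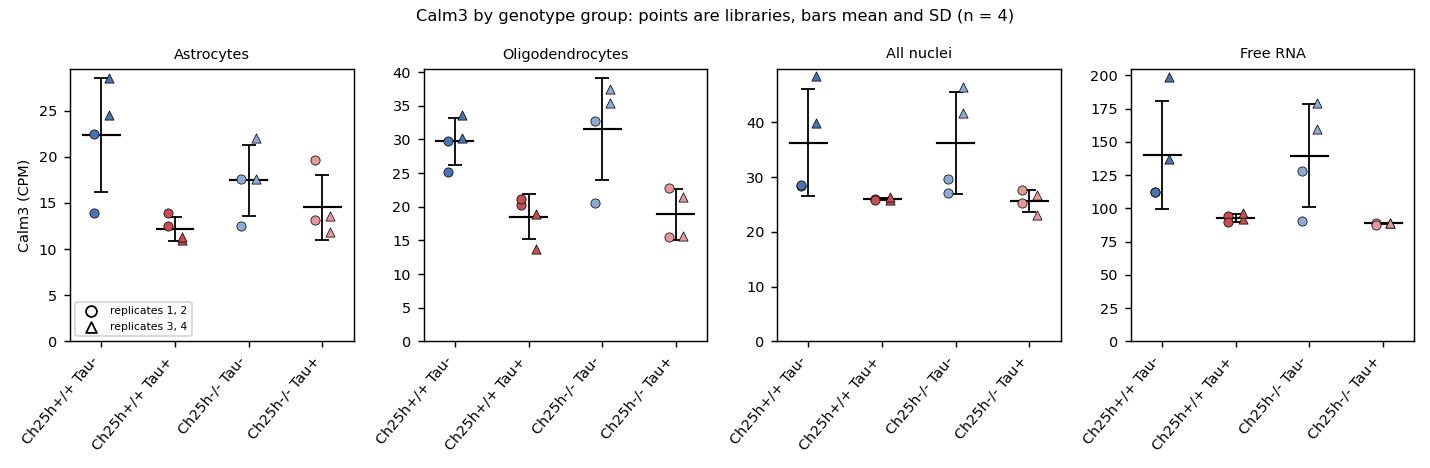
Calm3 (CPM) in astrocytes, oligodendrocytes, all nuclei and free RNA, by group. Points are libraries (circles replicates 1 and 2, triangles replicates 3 and 4), bars the mean and SD of 4. The Tau- triangles are the highest points over all nuclei and in free RNA, and Tau+ libraries lie close together in both.

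The astrocyte call rested on few counts and on single libraries. It was kept in 5 of 16 fits with 1 library left out (without Ch25h+/+ Tau- replicate 1, Ch25h-/- Tau+ replicates 2 or 3, or Ch25h-/- Tau- replicates 2 or 3) and lost in the other 11, with log2 fold changes of -1.10 to -0.85 and adjusted p of 0.0256 to 0.166. By side it was -0.59 in side A (adjusted p = 0.466) and -1.29 in side B (adjusted p = 0.104), both in edgeR. Calm3 read 16.4 CPM in astrocyte cluster 2 and 19.8 CPM in cluster 12, higher in cluster 12 in 9 of 16 libraries. Free RNA predicted 40.1% of the Calm3 counts of Ch25h+/+ Tau+ astrocytes and 30.1% of those of Ch25h+/+ Tau-. Calm3 in the free RNA itself read 92.9 ± 3.04 CPM in Ch25h+/+ Tau+, 140.2 ± 40.8 in Ch25h+/+ Tau-, 88.7 ± 0.62 in Ch25h-/- Tau+ and 139.4 ± 38.7 in Ch25h-/- Tau- (n = 4 each). Within each Ch25h genotype the tau groups did not overlap. The ranges were 89.4 to 96.4 CPM in Ch25h+/+ Tau+ and 112.3 to 198.9 CPM in Ch25h+/+ Tau-, the highest in replicate 3. Without Ch25h they were 87.8 to 89.2 CPM in Tau+ and 90.6 to 179.4 CPM in Tau-. Across genotypes, the lowest Ch25h-/- Tau- library lay within the range of Ch25h+/+ Tau+. No test of the free RNA was run. With the expected free RNA subtracted the log2 fold change was -1.16, with an adjusted p of 0.0920 in edgeR.

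Over the 9 genes, 59 of 80 point estimates were lower with tau and 21 higher with Ch25h intact, and 48 lower and 32 higher without it. With Ch25h intact Calm2 and Camk2a were lower in 9 of 9 classes. Without Ch25h Calm2 was lower in 7 and higher in 2 classes, and Camk2a lower in 2 and higher in 7. How many of all genes have the same sign in every class was not counted. Calm3 was lower with tau in the point estimates of all 9 classes in both genotypes. The log2 differences ran from -0.96 to -0.05 (median -0.37) with Ch25h intact and from -0.98 to -0.17 (median -0.50) without it, and apart from the astrocyte call none passed. By median the differences were larger in side B, at -0.79 and -0.73 over the 8 classes tested, against -0.14 and -0.17 over 9 classes in side A. In side A the sign was positive in DG granule neurons with Ch25h intact (0.01) and in CA1 pyramidal neurons (0.10) and astrocytes (0.07) without it, and in side B in OPCs with Ch25h intact (0.18). In these classes none was called in edgeR within a side (smallest adjusted p = 0.102). Other excitatory neurons with Ch25h intact had -0.24 in side A and -1.01 in side B, and inhibitory neurons -0.08 and -0.90. Oligodendrocytes read 20.3, 21.1, 18.9 and 13.7 CPM in Ch25h+/+ Tau+ against 25.2, 29.8, 33.6 and 30.3 CPM in Ch25h+/+ Tau-. These groups did not overlap (log2 difference -0.69, SE 0.20, edgeR adjusted p = 0.480). Without Ch25h they read 22.8, 15.5, 15.6 and 21.4 CPM in Tau+ against 20.6, 32.8, 35.4 and 37.4 CPM in Tau-, where only Tau- replicate 1 lay within the Tau+ range (-0.68, SE 0.20, edgeR adjusted p = 0.435). OPCs without Ch25h had -0.98 (SE 0.32, edgeR adjusted p = 0.722) and inhibitory neurons with Ch25h intact -0.53 (SE 0.18, edgeR adjusted p = 0.986). The OPC value came from 19, 5, 7 and 6 counts in Ch25h-/- Tau+ and 9, 18, 17 and 18 in Ch25h-/- Tau- (replicates 1 to 4). Free RNA held more Calm3 in Tau- than in Tau+ within each genotype, as given above, and enters all of these classes. Tau differences of Calm3 with free RNA subtracted are given for astrocytes only.

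Over all nuclei Calm3 read 25.9, 25.9, 25.8 and 26.3 CPM in Ch25h+/+ Tau+ and 28.3, 28.6, 48.4 and 39.9 CPM in Ch25h+/+ Tau-. It read 25.2, 27.7, 26.7 and 23.0 CPM in Ch25h-/- Tau+ and 27.2, 29.6, 46.5 and 41.7 CPM in Ch25h-/- Tau-. The 4 highest libraries were replicates 3 and 4 of both Tau- groups, and the other 12 lay between 23.0 and 29.6 CPM. The mean share of mitochondrial UMIs per nucleus was 0.542% and 0.182% in replicates 3 and 4 of Ch25h+/+ Tau- and 0.263% and 0.334% in those of Ch25h-/- Tau-, against 0.129% to 0.207% in the other 12, and its part in the Calm3 values was not tested. The log2 differences were -0.57 with Ch25h intact (adjusted p = 0.146) and -0.51 without it (adjusted p = 0.195) in edgeR, with DESeq2 calling the first (adjusted p = 0.0440). The group means of side A were 25.9 and 28.5 CPM with Ch25h intact and 26.5 and 28.4 CPM without it (Tau+ and Tau-), and those of side B 26.03 and 44.1, and 24.8 and 44.1 CPM. In side B alone the difference without Ch25h was called in edgeR, as given in the last section.

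Camk2d was lower with tau in CA1 and CA3 pyramidal neurons and higher in granule neurons and astrocytes by point estimate, and no difference passed in edgeR with all libraries and no block. In CA1 pyramidal neurons it read 49.8, 44.3, 124.6 and 83.2 CPM in Ch25h-/- Tau- against 42.0, 41.0, 29.5 and 36.5 CPM in Ch25h-/- Tau+. The 2 groups did not overlap, and replicates 3 and 4 of Ch25h-/- Tau- stood apart from all others. The log2 difference was -0.95 (SE 0.24, unadjusted p = 0.00126, adjusted p = 0.223) in edgeR, while DESeq2 gave -0.96 (adjusted p = 0.0239) and side B alone -1.57 (edgeR adjusted p = 0.00528), where 1.24% of genes were called. Side A alone gave -0.19 (edgeR adjusted p = 0.994). With Ch25h intact it read 30.3, 35.8, 43.0 and 44.2 CPM in Tau+ and 45.4, 44.5, 33.9 and 44.8 CPM in Tau- (log2 difference -0.17, SE 0.25, edgeR adjusted p = 0.993), with -0.45 in side A and 0.10 in side B.

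The make-up of the CA1 class moved with the Camk2d difference without Ch25h, and its part in that difference was not tested. Cluster 4, where Camk2d is low, held 38.1% and 26.5% of the CA1 nuclei in replicates 3 and 4 of Ch25h-/- Tau-, and 64.2% to 77.1% in the other 14 libraries. Within cluster 4 Camk2d read 5.1 to 10.2 CPM in Ch25h-/- Tau- and 3.0 to 4.0 CPM in Ch25h-/- Tau+, which did not overlap, with a log2 difference of -0.93 (two-sided exact permutation p = 0.0286, the smallest that 70 splits allow; adjusted p = 0.214 over 15 tests, chosen after the data were seen). It was -0.38 in cluster 10 (exact permutation p = 0.114) and -0.11 in cluster 47 (exact permutation p = 0.629). The CA1 class as a whole had a median free RNA share of 6.33% in Ch25h-/- Tau- and 3.26% in Ch25h-/- Tau+. Camk2d in free RNA itself read 84.7 and 94.9 CPM in these groups (means of 4 libraries). The part of free RNA in the low cluster 4 levels was not tested.

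**Figure D4:**
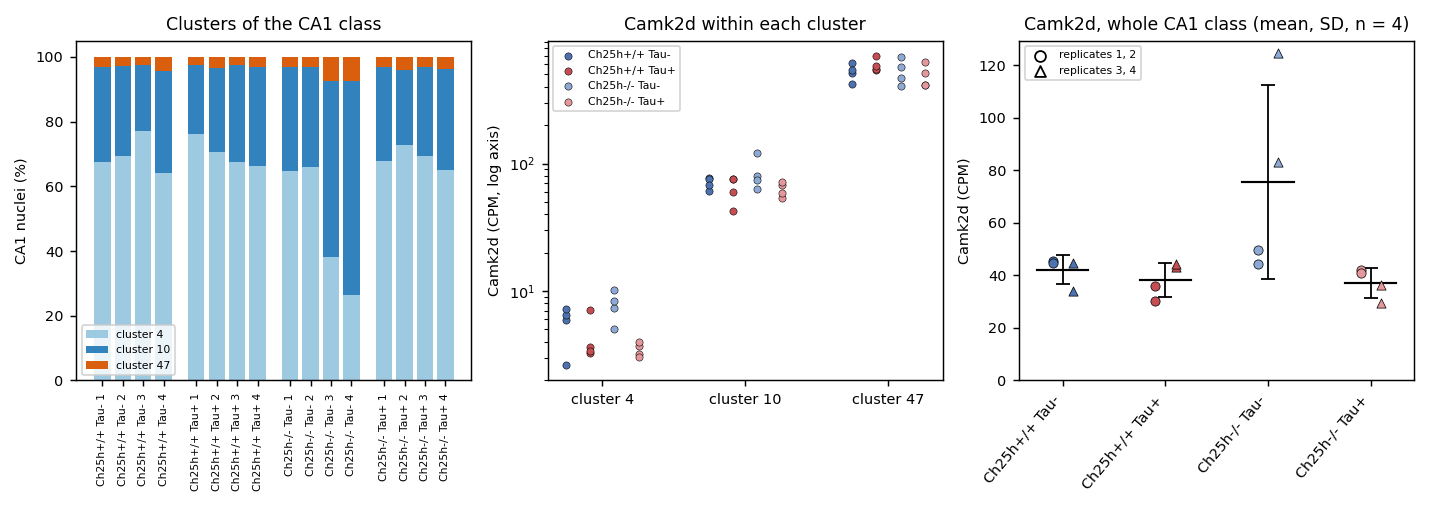
Left, share of CA1 nuclei (%) in each of 3 clusters per library. Middle, Camk2d (CPM, log axis) within each cluster per library by group. Right, Camk2d over the whole CA1 class, with mean and SD of 4 libraries and the sides of the split as circles and triangles. Replicates 3 and 4 of Ch25h-/- Tau- have the smallest share of cluster 4 and the highest class level.

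In CA3 pyramidal neurons Camk2d read 17.7, 10.7, 36.9 and 17.9 CPM in Ch25h+/+ Tau+ against 43.6, 33.5, 32.1 and 24.0 CPM in Ch25h+/+ Tau-, where 1 Tau+ library lay among the Tau- values (log2 difference -0.71, SE 0.31, edgeR adjusted p = 0.898), with -1.42 in side A and -0.08 in side B. It read 18.6, 10.5, 25.9 and 14.1 CPM in Ch25h-/- Tau+ against 33.8, 30.0, 36.8 and 37.97 CPM in Ch25h-/- Tau-, without overlap (-0.94, SE 0.31, edgeR adjusted p = 0.395), with -1.11 and -0.81 by side. The Camk2d-rich cluster 48 held 2.28% to 8.16% of CA3 nuclei in Ch25h-/- Tau+ and 9.11% to 13.98% in Ch25h-/- Tau-. With Ch25h intact its share overlapped, at 2.99% to 9.19% in Tau+ and 4.36% to 8.36% in Tau-. Within cluster 48 the tau difference of Camk2d was -0.04 with Ch25h intact and -0.47 without it (exact permutation p = 0.8286 and 0.143). Within cluster 6, the larger one, Camk2d read 10.3 ± 5.55 CPM in Ch25h-/- Tau+ and 17.3 ± 2.14 CPM in Ch25h-/- Tau- (n = 4 each; log2 difference -0.83, exact permutation p = 0.0571, adjusted p = 0.286). With Ch25h intact it read 12.04 ± 8.55 CPM in Tau+ and 22.7 ± 4.26 CPM in Tau- there (-1.04, exact permutation p = 0.114, adjusted p = 0.343). In DG granule neurons the sign was positive: 128.5, 111.7, 47.2 and 66.4 CPM in Ch25h+/+ Tau+ against 47.3, 70.2, 47.7 and 31.9 CPM in Ch25h+/+ Tau- (0.82, SE 0.34, edgeR adjusted p = 0.831), with overlapping groups and 1.02 in side A against 0.47 in side B. Without Ch25h the granule neurons read 88.6, 95.8, 61.1 and 96.0 CPM in Tau+ and 68.2, 80.7, 68.0 and 35.0 CPM in Tau- (0.45, edgeR adjusted p = 0.875).

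Astrocytes read 371.8, 345.6, 239.1 and 315.8 CPM of Camk2d in Ch25h+/+ Tau+ and 241.0, 261.3, 171.5 and 204.3 CPM in Ch25h+/+ Tau-. The lowest Tau+ library, replicate 3, lay within the Tau- range, and within each side the 2 Tau+ libraries were above the 2 Tau- libraries. The log2 difference was 0.47 (SE 0.16, edgeR adjusted p = 0.226), and with the side of the split as a block it was 0.47 and called (edgeR adjusted p = 0.0252), as were 1.91% of astrocyte genes in that fit, against 0.601% without the block. The sides of that block were taken from these same counts and not from a label. Cluster 12, the Gfap-led cluster with more Camk2d, held 16.3% to 59.2% of astrocytes in Ch25h+/+ Tau+ and 4.55% to 13.03% in Ch25h+/+ Tau-, and its part in the difference was not tested. Within cluster 2 Camk2d read 255 ± 40.8 CPM in Ch25h+/+ Tau+ and 205 ± 29.9 CPM in Ch25h+/+ Tau- (n = 4 each). Without Ch25h the class read 334.1, 339.6, 193.6 and 276.1 CPM in Tau+ and 301.6, 244.2, 241.0 and 208.8 CPM in Tau- (0.18, edgeR adjusted p = 0.872). Oligodendrocytes (0.77, SE 0.26) and OPCs (0.40, SE 0.14) with Ch25h intact had adjusted p of 0.589 and 0.851 in edgeR, and microglia 0.02 and -0.17 in the 2 genotypes.

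The widest Nrgn differences were in microglia and inhibitory neurons, where free RNA predicted most or all of its counts, and its part in them was not tested. In inhibitory neurons it read 7.6, 5.7, 3.9 and 5.2 CPM in Ch25h-/- Tau+ and 10.8, 8.7, 10.7 and 12.7 CPM in Ch25h-/- Tau-, without overlap (log2 difference -0.91, SE 0.23, edgeR adjusted p = 0.758). With Ch25h intact it read 4.5, 9.1, 8.9 and 7.3 CPM in Tau+ and 8.4, 8.9, 5.4 and 7.5 CPM in Tau- (-0.06, edgeR adjusted p = 0.995). Free RNA predicted 107% to 152% of these counts over the 4 groups, and Nrgn in free RNA read 234 ± 14.2 CPM in Ch25h-/- Tau+ and 340 ± 115 CPM in Ch25h-/- Tau-. In microglia Nrgn read 14.4, 20.7, 25.5 and 13.1 CPM in Ch25h+/+ Tau+ against 31.8, 55.4, 13.6 and 45.6 CPM in Ch25h+/+ Tau-, from 4 to 22 counts per library (-1.10, SE 0.38, edgeR adjusted p = 0.129). Without Ch25h it read 21.3, 19.1, 21.5 and 4.8 CPM in Tau+ and 26.8, 36.4, 22.9 and 41.0 CPM in Tau- (-0.95, SE 0.37, edgeR adjusted p = 0.216), with 78.1% to 103% predicted by free RNA. In the excitatory classes with the highest Nrgn, DG granule neurons and CA1 pyramidal neurons, the differences were -0.01 and 0.03 with Ch25h intact and 0.11 and 0.10 without it. In CA3 pyramidal neurons they were -0.10 and -0.19 (the latter with SE 0.11, edgeR adjusted p = 0.686). Other excitatory neurons had -0.24 in both genotypes (SE 0.13, edgeR adjusted p = 0.986 and 0.818), and none of these 8 differences was called.

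The tau differences of Ppp3ca over the 9 classes ran from -0.12 to 0.05 with Ch25h intact and from -0.18 to 0.20 without it. By side and without Ch25h they ran from -0.22 to 0.08 in side A and from -0.14 to 0.36 in side B. Over all nuclei with Ch25h intact the difference was -0.21, wider than in any class, and not called. The part of the class shares in it was not tested. In CA1 pyramidal neurons Ppp3ca read 2346, 2434, 2558 and 2341 CPM in Ch25h-/- Tau+ against 2266, 2268, 2077 and 1916 CPM in Ch25h-/- Tau-, without overlap (log2 difference 0.20, 95% interval 0.07 to 0.34, edgeR adjusted p = 0.355). The 2 lowest libraries were those with the smallest share of cluster 4, in which Ppp3ca is high, and the part of this share in the difference was not tested. With Ch25h intact it read 2414, 2278, 2306 and 2357 CPM in Tau+ and 2303, 2326, 2548 and 2311 CPM in Tau- (-0.05, 95% interval -0.19 to 0.09, edgeR adjusted p = 0.991).

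None of the remaining genes was called in any class or contrast. The tau differences of Calm2 ran from -0.26 to -0.08 with Ch25h intact and from -0.28 to 0.26 without it. With Ch25h intact they were positive in 7 of 9 classes in side A (median 0.14) and negative in 9 of 9 in side B (median -0.48). Without Ch25h they were negative in 5 of 9 classes in side A and 9 of 9 in side B. Those of Camk2a ran from -0.31 to -0.02 with Ch25h intact and from -0.17 to 0.19 without it, and those of Camk2b from -0.51 to 0.05 and from -0.64 to 0.18, with the widest in oligodendrocytes. Camk2g ran from -0.20 to 0.18 and from -0.39 to 0.18. Camk4 ran from -0.33 to 0.53 and from -0.26 to 0.99, the highest value of each in astrocytes. There it read 20.5, 16.4, 6.79 and 5.25 CPM in Ch25h-/- Tau+ and 8.07, 8.70, 5.58 and 3.99 CPM in Ch25h-/- Tau-, from 8 to 58 counts per library (0.99, SE 0.40, edgeR adjusted p = 0.476). The groups overlapped, and the 2 highest libraries were those of side A in Tau+, with side means of 18.5 against 8.39 CPM in side A and 6.02 against 4.79 CPM in side B. Free RNA predicted 40.7% of these Camk4 counts in Ch25h-/- Tau+ and 69.7% in Ch25h-/- Tau-. For the loss of Ch25h the member with the largest difference was Calm3 with tau (-0.85 in OPCs, SE 0.32, edgeR adjusted p = 0.9996) and Camk2d without tau (0.77 in CA1 pyramidal neurons, SE 0.24, edgeR adjusted p = 0.786), beside the change of the CA1 clusters given above. Within CA1 clusters 4, 10 and 47 the Camk2d difference without tau was 0.44, 0.23 and 0.01 (exact permutation p = 0.257, 0.371 and 0.971). In the CA3 clusters 6 and 48 it was -0.37 and 0.12 (exact permutation p = 0.0286 and 0.571), and none of the 5 passed after adjustment over the 15 tests (smallest adjusted p = 0.214). Camk2g in CA1 pyramidal neurons had 0.32 without tau (SE 0.10, edgeR adjusted p = 0.786).

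Of 40 other genes of calmodulin signalling in 6 lists, 0 of 302 pairs of gene and class were called in any of the 5 contrasts, with 31, 42, 7, 12 and 13 at an unadjusted p under 0.05 in edgeR (tau with Ch25h intact, tau without Ch25h, loss of Ch25h with and without tau, interaction). The shares over all genes in these classes were 6.75%, 7.67%, 3.21%, 3.39% and 3.89%, and the first 2 are the background of the counts by list. Their median log2 differences were -0.04, -0.05, 0.01, 0.02 and -0.03, and those of all genes tested by class lay between -0.01 and 0.01 for both tau contrasts. The calmodulin-binding proteins Gap43, Pcp4 and Pcp4l1 had 4 and 7 of 17 pairs at an unadjusted p under 0.05 for tau with Ch25h intact and without Ch25h, 3 and 6 of them lower in Tau+, with medians of -0.23 and -0.18. The CaMKII inhibitors Camk2n1 and Camk2n2 had 6 and 0 of 15 pairs, all 6 lower in Tau+, with medians of -0.42 and -0.18. The other kinases had 6 and 6 of 70 pairs (medians 0.04 and -0.01), calcineurin subunits and regulators 3 and 10 of 67 (-0.02 and -0.03), targets of calcineurin and the kinases 5 and 1 of 53 (-0.01 and -0.06), and other calmodulin-regulated enzymes 7 and 18 of 80 (-0.07 and -0.11).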

How the data were processed

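Nuclear RNA of the hippocampus was counted per droplet in 16 libraries (10x 3' chemistry). The deposited matrices hold whole-number UMI counts per gene and barcode, unnormalized and made with Cell Ranger 4 (per the file headers), while the submitters' processing notes name Cell Ranger 3.1.0, Seurat and build mm10. Whether introns were counted is not given in the sources used here. All barcodes were present. Nuclei with at least 500 UMIs, 300 genes and at most 5% mitochondrial UMIs were kept (147873). The 11045 with the highest Scrublet scores were removed as doublets, a number set for each library at 0.8% per 1000 nuclei. Nuclei were clustered with scanpy 1.11.5 (3000 variable genes without the genes described and the related list, 50 components, 20 neighbours, Leiden resolution 1.5). A cluster was named where at least 3 markers of a list were 2-fold up; 51 of 96 clusters, with 15414 nuclei (7.63% to 15.9% per library), stayed unnamed, by rules settled after the clusters were seen. Sex, age and genotype were taken from the labels, and replicate numbers follow the order of the samples.

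Counts were summed per library and class and tested with edgeR 4.0.16 (TMM, quasi-likelihood, all 4 groups in the fit, Benjamini-Hochberg adjustment), with DESeq2 1.42.0 as an alternative, after a check on simulated data. A class was tested where no library had fewer than 20 nuclei. Free RNA was read from barcodes under 100 UMIs, and its share in each class was estimated from genes of other cell types: myelin genes in neuronal classes, neuronal genes in the others. Class orders used exact permutations of signs of log2(CPM + 1) (scipy 1.17.1). Gene positions are those of GENCODE vM21 on GRCm38. The genes described are the 9 members in every tested class, related genes only where called (none was), the 3 genes most like each by correlation, label checks (Ch25h, Prnp), and the chromosome 3 genes Gm43049 and 1700030L20Rik. Outside this rule, Gap43, Pcp4, Pcp4l1, Camk2n1 and Camk2n2 are named as the genes of the 2 shortest lists given, after their values were seen. Members, lists and markers were chosen with earlier results of these data known. Alternatives were other scaling, no count filter, 1000 UMIs, doublets kept, free RNA subtracted, fewer groups, the split as a block or each side alone, and each library left out; tests within clusters were added after the data were seen. The lists of related genes are given without 1 gene, which is not reported here, and their counts and medians hold for the remaining genes only and differ from those of the whole lists.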

Additional observations from a re-analysis of the deposited data

Results flagged for a closer look

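In 40 groups of 4 libraries checked, 3 held a library whose distance from its nearest neighbour was above Dixon's 95% critical share of the group's range, a frequency that chance alone gives in about 1 in 20 groups. The 40 are only a part of all sets of gene, class and group, and the other sets were not checked. Camk2d in CA1 pyramidal neurons of Ch25h+/+ Tau- read 33.9 CPM in replicate 3, against 44.5 to 45.4 CPM in the others. Ppp3ca in the same class, group and replicate read 2548 CPM, against 2303 to 2326 CPM. Nrgn in microglia of Ch25h-/- Tau+ read 4.80 CPM in replicate 4, from 3 counts, against 19.1 to 21.5 CPM.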

How the results depend on the processing

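No paired analysis was possible because the labels give no replicate numbers, which here follow sample order. For tau with Ch25h intact, the 1 called pair became 0 with free RNA subtracted, with side B alone or with only the 2 groups fitted, 2 with the side as a block (Calm3 and Camk2d in astrocytes), 2 with DESeq2 (Calm3 in astrocytes and all nuclei), and 0 to 1 with 1 library left out. With side A alone the 1 call was another pair, Nrgn in microglia (-1.33, edgeR adjusted p = 0.0442). The share of all microglia genes called in side A is not given here, and with all libraries it was 2.19%. For tau without Ch25h the count of 0 became 2 in side B (Camk2d in CA1 pyramidal neurons; Calm3 in all nuclei, -0.80, edgeR adjusted p = 0.0228; side A, -0.19 and -0.16) and 1 with DESeq2. For the loss of Ch25h without tau and for the interaction it became 1 in side B, Camk2d in CA1 pyramidal neurons each time (1.30 and -1.68, edgeR adjusted p = 0.0150 and 0.0422, with 0.08 and 0.26 in side A). The shares of all genes called in side B are not given here, except for tau without Ch25h in CA1 pyramidal neurons. There the share was 1.24%, against 0.0408% with all libraries. Calm3 in astrocytes was -0.96 with only the 2 groups fitted (edgeR adjusted p = 0.0906). Within side A, Calm2 with Ch25h intact was higher with tau in 7 of 9 classes, against lower in 9 of 9 with all libraries. The turned signs of Calm3 in DG granule neurons, CA1 pyramidal neurons and OPCs are given above, and other signs by side are not all listed. Signs turned for Calm3 in astrocytes without Ch25h (side A, 0.067), for Camk2d in CA1 pyramidal neurons in the interaction (side A, 0.26) and with Ch25h intact (side B, 0.10; cluster 47 alone, 0.19), for Ppp3ca there (side A, 0.0032), and for Nrgn in inhibitory neurons with Ch25h intact (side B, 0.27; without Ch25h+/+ Tau+ replicate 1, 0.13; without Ch25h+/+ Tau- replicate 2, 0.04; leave-one-out range -0.19 to 0.13). None of these was called in edgeR with all libraries, and the cause was not tested. Of 72 neighbouring class pairs, 58 were apart, against 57 with 1000 UMIs, 57 with doublets kept (Nrgn in OPCs and inhibitory neurons turned), 52 with free RNA subtracted and 54 to 58 with 1 library left out. Counts of 18 to 67 per library limit Calm3 in astrocytes, 5 to 24 limit Calm3 in OPCs, and 3 to 22 limit Nrgn in microglia.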
